A study of Mus musculus with 14 samples.

Results

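DIS3L2-depleted and control mouse embryonic stem cells (ESCs) were compared before differentiation, at d0, in the medium with LIF and the 2 inhibitors known as 2i. The comparison rests on 2 of the 14 libraries of the series, shDIS3L2 d0 and shLacZ d0, with 1 library per line. They were chosen by their labels, which give each library its line and its day. Both lines descend from an ESC line that carries an Osr1-GFP reporter, and each holds a stably integrated short hairpin, against Dis3l2 in shDIS3L2 and against the bacterial gene LacZ in the control. The other 12 libraries come from embryoid bodies (EBs) that the same lines formed as hanging drops in serum after LIF and 2i were withdrawn, on 6 later days from d2 to d12. RNA was extracted with Trizol and sequenced, and reads were counted per gene. The labels give polyA RNA, and the methods of the study also state that polyA RNA was isolated. The guide those methods name for library preparation is one for total RNA, so the exact preparation is uncertain. A stable line is 1 population of selected cells, so the hairpin and anything else that sets the lines apart cannot be told apart at d0. In these bulk libraries, fewer cells of a type and less RNA per cell cannot be told apart either.

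DIS3L2 is an exoribonuclease that degrades RNA from the 3′ end and prefers RNAs that carry a tail of added uridines. The tail is put on by the terminal uridylyltransferases TUT4 and TUT7, and the marked RNAs include precursors of the let-7 microRNAs, the 7SL RNA of the signal recognition particle (SRP), spliceosomal U RNAs, 5S rRNA, Y RNAs, vault RNA and the RNA subunits of RNase P and RNase MRP. In ESCs held in LIF and 2i, DIS3L2 therefore acts as part of a quality control for structured RNAs, beside a network of transcription factors that keeps the cells in the naive state.

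The small structured RNAs had the largest differences between the lines at d0. The genes below are shown because they stand for U1, U2, RNase MRP and Y1, and because their 3′ ends are where uridines would be added. Each is a non-coding gene of a single exon in GENCODE M21 on GRCm38, and the last 10 bases are in capitals. The U1 gene Gm26232 lies at chr3:96450446-96450611 and the U2 gene Rnu2-10 at chr11:101658238-101658428, both on the plus strand. Rmrp, at chr4:43492788-43493058, and the Y1 gene Rny1, at chr6:47788069-47788180, lie on the minus strand.
Gm26232: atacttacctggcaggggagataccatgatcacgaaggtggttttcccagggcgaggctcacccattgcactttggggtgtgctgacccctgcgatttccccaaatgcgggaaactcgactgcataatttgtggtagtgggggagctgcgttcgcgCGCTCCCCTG
Rnu2-10: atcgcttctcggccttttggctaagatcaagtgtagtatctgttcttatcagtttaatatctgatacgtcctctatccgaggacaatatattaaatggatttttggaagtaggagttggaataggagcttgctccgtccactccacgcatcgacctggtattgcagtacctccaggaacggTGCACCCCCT
Rmrp: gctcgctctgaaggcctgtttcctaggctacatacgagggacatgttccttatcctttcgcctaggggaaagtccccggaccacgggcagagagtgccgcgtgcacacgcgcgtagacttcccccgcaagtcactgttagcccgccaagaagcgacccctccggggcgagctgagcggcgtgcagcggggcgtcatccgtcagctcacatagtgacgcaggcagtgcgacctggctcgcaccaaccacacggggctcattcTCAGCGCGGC
Rny1: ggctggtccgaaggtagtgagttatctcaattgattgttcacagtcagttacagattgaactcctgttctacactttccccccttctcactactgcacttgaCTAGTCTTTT

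The shLacZ d0 library held 39888099 reads on genes and the shDIS3L2 d0 library 26476988. The floor of 3 counts was 0.0752 CPM (reads of a gene scaled to a common library total) in the first and 0.113 CPM in the second. With library totals alone, the median protein-coding gene was at 0.803 of its shLacZ level in shDIS3L2, a log2 fold of -0.32 over 12154 genes, while the same median lay between -0.07 and 0.05 on the other 6 days. All folds at d0 were therefore divided by this median, so that a fold of 1 is the fold of the median protein-coding gene, and shDIS3L2 levels are given as CPM multiplied by 1.25. Both d0 libraries stood apart from the EB libraries in that processed pseudogenes took 20.1% and 21.0% of their reads, against 7.60% to 12.7% in the other 12. The shDIS3L2 d0 library also stood apart from its partner, with 0.0890% of its reads on small RNA gene types, against 0.0186% in shLacZ d0 and 0.00911% to 0.0142% in the others. Most small structured RNAs, replication-dependent histone mRNAs and rRNA-like sequences carry no long poly(A) tail, and members of all 3 kinds had higher folds in this library, as given below. The part of RNA selection and library preparation in those differences was not tested, and with 1 library per line it cannot be told apart from the line. The 8 ESC-like markers, such as Pou5f1, Nanog and Dppa5a, were detected in both libraries, and 0 of 8 differed 2-fold. Dppa5a was at 1367 CPM in shLacZ and at 1616 scaled CPM in shDIS3L2.

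With 1 library per line there is no replicate check of a fold at d0 and no p-value. A gene was counted as higher or lower when its scaled fold was at least 2, its level 1 CPM or more in either of the libraries, and the 95% exact Clopper-Pearson interval of the read ratio excluded 1. A gene that reached 1 CPM in 1 library only entered the comparison through the library where it was high, so the tally of such genes follows in part from the filter. These intervals cover counting error only and say nothing of how much 2 cultures of 1 line would differ. By this rule 376 of 12154 protein-coding genes (3.09%) were higher and 550 (4.53%) lower in shDIS3L2. Among the 2348 other genes with enough reads, 311 (13.2%) were higher and 425 (18.1%) lower. The split depended on the scaling, with 190 protein-coding genes higher and 1252 lower by library totals, 212 and 1055 by the total reads of protein-coding genes, and 480 and 349 when genes were centred on others of their level. Centring on genes of like level was chosen after the data were seen.

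Dis3l2 itself checked the labels. It had 1146 reads, or 28.7 CPM, in shLacZ and 104 reads, or 4.89 scaled CPM, in shDIS3L2, a level 5.87-fold lower and a fold of 0.170 (95% interval 0.138 to 0.208). It had the smallest scaled fold among protein-coding genes with at least 10 CPM in the higher library. Its sister nucleases stood close to the median gene, with folds of 0.975 (0.896 to 1.06) for Dis3, the catalytic subunit of the nuclear exosome, and 0.980 (0.857 to 1.12) for Dis3l, that of the cytoplasmic exosome. Xrn1, the nuclease that degrades RNA from the 5′ end, was at a fold of 1.24 (1.10 to 1.39).

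Of the 29 genes measured on a list of uridylyltransferases and 3′ decay factors, 0 were higher and 1 (3.45%) was lower, beside the 3.09% and 4.53% of all protein-coding genes, with a median log2 fold of -0.04 that turned to 0.04 with DESeq2 size factors. The lower gene was Zcchc11, which encodes TUT4, with 254 reads (6.37 CPM) in shLacZ and 35 (1.65 scaled CPM) in shDIS3L2. Its level was 3.87-fold lower, with a fold of 0.258 (0.176 to 0.369). Zcchc6, which encodes TUT7, stood at 23.3 CPM and 27.0 scaled CPM, a fold of 1.16 (1.04 to 1.29). The exosome subunits Exosc5 and Exosc8 were the most abundant members, at folds of 1.186 and 1.199. On later days Zcchc11 lay between 93.8 and 139 CPM in shLacZ and between 83.5 and 182 scaled CPM in shDIS3L2, so both d0 libraries were low in this gene and shDIS3L2 d0 the lower of the pair. The difference at d0 was below that of the other days by 2.32 on the log2 scale (SE 0.40, adjusted p = 0.0347, edgeR quasi-likelihood test, Benjamini-Hochberg). The call was lost without d6, d8, d10 or d12, where the adjusted p reached 0.0756.

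Small RNA gene families were read as sums over all annotated copies of 80% or more identity to a reference gene, since copies share reads and their single counts are uncertain. Of the 16 families, 14 had an interval that lay above a fold of 1 at d0. This asks for neither a fold of 2 nor 1 CPM, and the share of all genes with such an interval was not counted. Abundant genes near the median can have one too, such as Calr at 1.046 to 1.079. The tally therefore has no background to be read against. The 97 genes annotated in the 5S rRNA family, the RNA of the large ribosomal subunit transcribed by RNA polymerase III, went from 156 reads (3.91 CPM) in shLacZ to 6605 (311 scaled CPM) in shDIS3L2, a fold of 79.4 (67.8 to 93.7). The gene n-R5s103 took 67.0% of the 5S reads in shDIS3L2. U1, the RNA that recognises the 5′ splice site, went from 146 to 4188 reads over the copies that include Gm26232, a fold of 53.8 (45.6 to 63.9). U2, which pairs with the branch point, went from 67 to 2277 reads, a fold of 63.8 (50.01 to 82.6). In the control library each of these families lay at or below the 3.91 CPM of 5S, and in shDIS3L2 each lay at or above the 107 scaled CPM of U2.

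U6, another spliceosomal RNA, stood well below U1 and U2 in its fold. It had 62 reads in shLacZ and 70 in shDIS3L2, a fold of 2.12 (1.48 to 3.03). U5 went from 3 to 27 reads, at a fold of 16.9 (5.196 to 87.0). The minor spliceosome RNA U12 had 4 and 9 reads, and U11 had 2 and 0, which is under the floor in both libraries and gives no fold. U8, a snoRNA of rRNA processing encoded by Snord118, had 2 and 35 reads, a fold of 32.8 (8.44 to 282) whose interval is wide because of the 2 control reads.

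The other stable non-coding RNAs were higher in shDIS3L2 with the exception of telomerase RNA. The 7SK family, which holds the RNA that restrains the elongation factor P-TEFb, went from 158 to 2059 reads, a fold of 24.5 (20.8 to 28.9). 7SL went from 6 to 185 reads, a fold of 57.9 (26.1 to 160), and most of its reads lay on Rn7s6. Rn7s1, another copy, had 0 and 22 reads. RNase MRP RNA, which cleaves pre-rRNA, went from 52 to 792 reads, a fold of 28.6 (21.6 to 38.6). RNase P RNA, which trims the 5′ ends of tRNA precursors, went from 404 to 1731 reads, the smaller fold of 8.04 (7.21 to 8.98). Telomerase RNA, the template of the enzyme that extends chromosome ends, had 5 reads in shLacZ and 0 in shDIS3L2, a count that allows a fold of up to 2.05.

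The Y RNAs, which bind the Ro60 protein, and the vault RNA, part of the vault particle, were scarce in both lines. Y1 went from 6 to 51 reads, a fold of 15.95 (6.84 to 45.5), and Y3 from 3 to 13, a fold of 8.13 (2.23 to 44.5). Vault RNA had 1 read in shLacZ and 107 in shDIS3L2, a ratio of 201 with an interval of 35.3 to 8003. The let-7 genes, whose precursors are the best known DIS3L2 targets, had 1 read in each library over 11 annotated genes, so nothing can be said of them at this depth. Lin28a, whose protein recruits TUT4 to let-7 precursors, stood at 71.5 CPM and 74.0 scaled CPM.

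**Figure D1:**
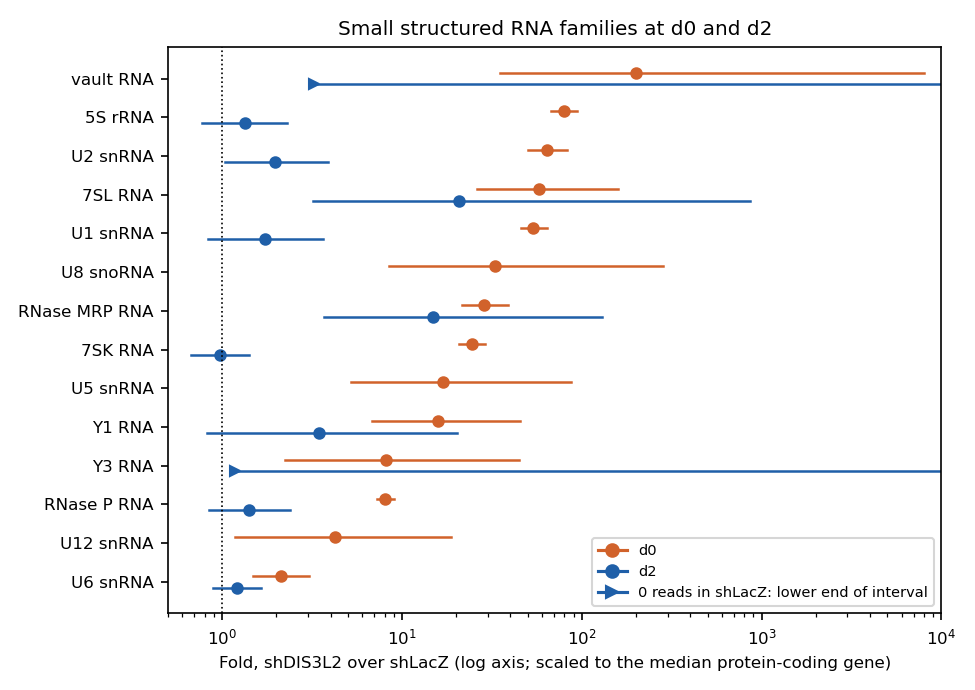
Scaled fold of shDIS3L2 over shLacZ at d0 and at d2 on a log axis, for each small RNA family with reads in both d0 libraries. Points give the fold and bars the 95% interval of the read ratio. U11 and telomerase RNA, with 0 reads in shDIS3L2 at d0, are not shown. At d0 5S rRNA lies at 79.4, U2 at 63.8 and U1 at 53.8, and at d2 the same families lie at 1.34, 1.97 and 1.72.

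At the level of single genes, 31 genes of these families reached 1 CPM in either library, at a median log2 fold of 5.39, but 25 of them did so in shDIS3L2 alone and entered through the library where they were high, so neither their tally nor their median is support. The 6 that reached 1 CPM in shLacZ had a median of 5.21. All small RNA gene types together had 65 genes with enough reads, 45 higher and 1 lower, beside the 13.2% and 18.1% of all genes outside the protein-coding set. Of the 29 with 1 CPM or more in shLacZ, 10 were higher and 1 lower, at a median of 0.74. The snoRNAs, which guide modification of rRNA and mostly lie in introns, stood apart from the families above with 11 of 30 higher, 1 lower and a median of 0.75, or 4 of 22 higher among those with 1 CPM or more in shLacZ. Snord17 was an exception among them, with 2 reads in shLacZ and 92 in shDIS3L2, a ratio of 86.3 (23.2 to 723). The families held 134 of the 395 small RNA genes with a read at d0 and 62.1% of their reads.

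The d0 pair did not share its libraries with the d2 pair, so d2 gives a separate measurement of the same lines. There, 5 of the 16 families had an interval above 1, a tally again without a share of all genes beside it. The 7SL family had 1 read in shLacZ and 16 in shDIS3L2, a ratio of 20.7 (3.21 to 866), and RNase MRP RNA had 2 and 23, a ratio of 14.9 (3.67 to 130). Vault RNA had 0 and 11 reads, at least 4.73-fold higher over the floor, and Y3 had 0 and 5, at least 2.15-fold higher. U2 had 17 and 26 reads, a fold of 1.97 (1.03 to 3.88). The families with the most reads at d0 did not show their d0 fold at d2, where 5S had 29 and 30 reads, a fold of 1.34 (0.774 to 2.31), and 7SK had 70 and 53, a fold of 0.977. From d4 to d12 no family had an interval above 1 on any day. Over those days the interval lay below 1 on 3 days for 5S, U1 and RNase P RNA and on 2 for U2 and 7SK. It did so on 1 day for RNase MRP RNA and U5. At d12, 5S had 89 reads in shLacZ and 13 in shDIS3L2, a fold of 0.133 (0.0684 to 0.240), U1 a fold of 0.189 and RNase P RNA 0.130.

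A small set of genes with very high counts was also higher in shDIS3L2 at d0. Gm42418 (lincRNA, chromosome 17, 39846958 to 39848788) had 75433 reads in shLacZ and 552890 in shDIS3L2, or 1891 CPM and 26010 scaled CPM, a fold of 13.8 (13.6 to 13.9). Gm15564 (antisense, chromosome 16) had 3868 and 18074 reads, a fold of 8.77, and Mir6236 (chromosome 9) had 2833 and 8508, a fold of 5.63. Lars2, which encodes mitochondrial leucyl-tRNA synthetase, went from 16228 to 78575 reads, a fold of 9.09 (8.93 to 9.24), the largest among protein-coding genes with at least 10 CPM in the higher library. Gm42418 and Lars2 are known to contain stretches that resemble ribosomal RNA, so their counts are uncertain as a measure of the named genes, and Gm15564 lies antisense to other genes, whose reads cannot be told apart without strand. On later days Lars2 ran the other way, at 270 CPM in shLacZ and 184 scaled CPM in shDIS3L2 at d2 and at 275 and 110 at d12. The log2 folds of Gm42418, Gm15564, Mir6236 and Lars2 were below 0 on each of the 6 later days. Gm42418, Gm15564 and Mir6236 were named after their values were seen.

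Mitochondrial RNA differed by kind. Of 8 measured mitochondrial rRNA and tRNA genes, 6 were higher and 0 lower, with a median log2 fold of 1.55, and 5 of the 7 with 1 CPM or more in shLacZ were higher. Over all genes outside the protein-coding set, 13.2% were higher and 18.1% lower. The 12S rRNA gene mt-Rnr1 went from 134 CPM to 372 scaled CPM, a fold of 2.77 (2.68 to 2.87), and the 16S gene mt-Rnr2 from 188 to 838, a fold of 4.46 (4.34 to 4.58). The 13 protein-coding genes of the mitochondrial genome had 3 higher and 0 lower, beside 3.09% and 4.53% of all protein-coding genes, and a median of 0.39. The complex I gene mt-Nd5 stood at 814 CPM and 2493 scaled CPM, a fold of 3.06, while mt-Co1 of complex IV stood at a fold of 0.750. The complex I gene mt-Nd3 and the ATP synthase gene mt-Atp8 were also counted as higher, at folds of 2.15 and 2.77. On later days the log2 fold of mt-Rnr1 lay between -0.90 and -0.24, below 0 on each of them. That of mt-Rnr2 was 0.50 at d2, at 355.5 CPM and 504.2 scaled CPM, and lay between -1.02 and -0.31 from d4 to d12. The mitochondrial genes were named after their values were seen.

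Replication-dependent histone genes, whose mRNAs end in a stem-loop and not a poly(A) tail, had a median above that of all protein-coding genes. Of 27 with enough reads, 20 were higher and 0 lower, beside 3.09% and 4.53% of all protein-coding genes. Their median log2 fold was 1.41, beside 0 for all protein-coding genes. Of the 27 histone genes, 13 reached 1 CPM in shDIS3L2 alone, and among the 14 that did so in shLacZ 7 were higher and 0 lower, at a median of 1.01. The counts were low, with 1403 reads over the 65 genes in shLacZ and 1941 in shDIS3L2. Hist1h1a, a linker histone, had 58 and 167 reads, a fold of 5.40, and Hist1h4j had 57 and 109, a fold of 3.59. Hist3h2a went the other way, with 81 and 27 reads, a fold of 0.625. At d2 the median of the 10 histone genes with enough reads was -0.20. Histone genes are near-identical copies, and the named ones were chosen after their values were seen.

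Ribosomal protein and oxidative phosphorylation genes, both highly expressed, had medians above that of all protein-coding genes. The 81 cytosolic ribosomal protein genes had a median log2 fold of 0.55, which was 0.23 by library totals. Of them 8 were higher (9.88%, beside 3.09% of all protein-coding genes) and 0 lower. Rpl38 had 1660 and 2164 reads, a fold of 2.45, and Rps28 had 3068 and 3406, a fold of 2.08, and both were named after their values were seen. The 81 nuclear genes of oxidative phosphorylation subunits had a median of 0.48, with 3 higher (3.70%, near the 3.09% of all protein-coding genes) and 0 lower, and 0.16 by library totals. Over all protein-coding genes the fold moved with the level and the length of the gene. The median scaled log2 fold was -0.24 in the 10% of genes with the lowest mean CPM and 0.27 in the highest 10%, and it was 0.27 in the shortest 10% and -0.07 in the longest. When genes were centred on others of their level, the ribosomal protein median was 0.33 and the oxidative phosphorylation median 0.25, and the latter was 0.30 when they were centred on genes of like length.

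**Figure D2:**
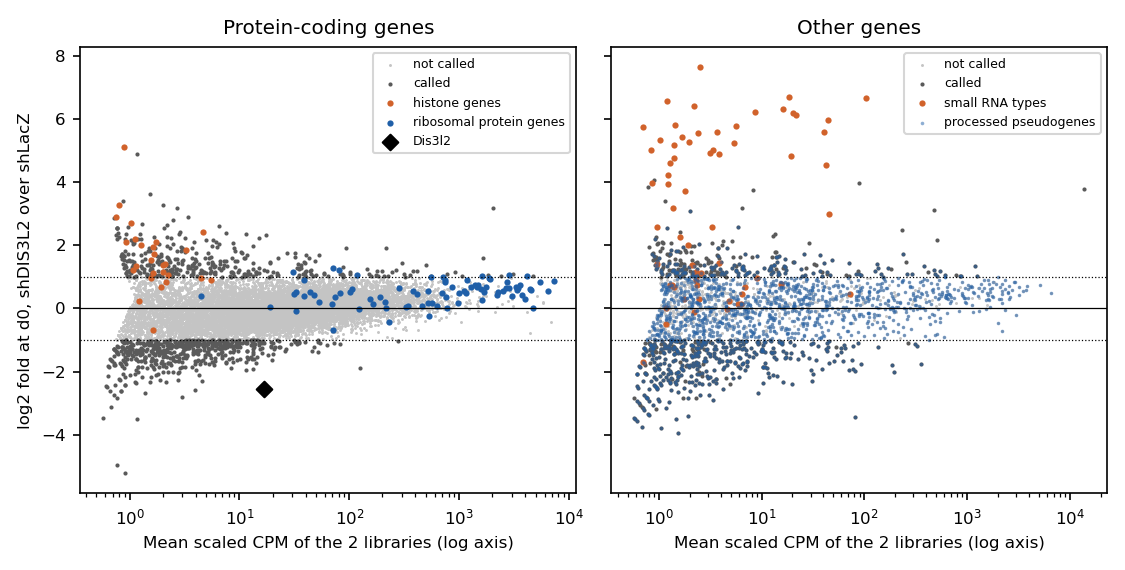
Scaled log2 fold of shDIS3L2 over shLacZ at d0 against mean CPM on a log axis, with 1 point per gene, for protein-coding genes (left) and other genes (right), dark where counted as higher or lower and coloured by class. On the left the median runs from -0.24 in the lowest 10% of mean CPM to 0.27 in the highest and Dis3l2 lies at -2.55. On the right n-R5s103 lies at 6.66. Of 65 small RNA genes compared, 36 reached 1 CPM in shDIS3L2 alone and so entered through the library where they were high. Among the 29 with 1 CPM or more in shLacZ, 10 were higher and 1 lower.

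The quartiles of the log2 fold over protein-coding genes were -0.35 and 0.31, and the lowest and highest 5% of genes lay beyond -0.96 and 0.83. Another 912 genes had a fold between 1.5 and 2 upward, and 1109 downward. Among genes with at least 10 CPM in the higher library, the largest folds after that of Lars2 included several genes of X-linked families, described below with their families. Cited4, a transcriptional co-activator, had 3.73 CPM in shLacZ and 19.15 scaled CPM in shDIS3L2, a fold of 5.13 (4.24 to 6.23). Prickle1, of the planar cell polarity pathway, had 2.31 and 10.0, a fold of 4.34 (3.39 to 5.61). Adcy2, an adenylyl cyclase, had 3.38 and 14.2, a fold of 4.21 (3.43 to 5.197). Ppp1r10, which targets protein phosphatase 1 in the nucleus, was the most abundant of these after Lars2, at 38.6 and 147, a fold of 3.82 (3.59 to 4.06). Gm20219, Tanc2 and Oc90 completed the set at folds of 6.14, 4.15 and 3.82.

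The genes with the lowest folds after Dis3l2 held one very abundant gene. Eif4a2, a helicase of translation initiation, stood at 195 CPM (7769 reads) in shLacZ and at 53.01 scaled CPM (1127 reads) in shDIS3L2, a level 3.67-fold lower (fold 0.272, interval 0.256 to 0.290). On the later days the log2 fold of Eif4a2 lay between -0.38 at d4 and 0.27 at d10. Chac1, which breaks down glutathione and is a target of the integrated stress response, was 3.28-fold lower, from 21.6 to 6.59. Herpud1, of the ER-associated degradation machinery, was 3.13-fold lower, from 29.9 to 9.55. Slc37a1, a sugar-phosphate transporter, Emb, a cell adhesion protein, Crmp1 and Lrig3 were 3.32-, 3.25-, 3.24- and 3.08-fold lower. Aldoart1, Gm6169 and Acat3, each with near-identical relatives and so uncertain, were 3.83-, 3.74- and 3.25-fold lower.

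X-linked multigene families differed in direction from each other. Their counts stand beside the 3.09% higher and 4.53% lower of all protein-coding genes. Of the Fthl17 genes, which encode ferritin heavy chain-like proteins of the germline and early embryo, 5 of 5 with enough reads were higher, with a median log2 fold of 2.37, but 3 of the 5 reached 1 CPM in shDIS3L2 alone. Fthl17e had 97 reads in shLacZ and 270 in shDIS3L2, a fold of 5.22 (4.13 to 6.66), and Fthl17f had 212 and 451, a fold of 3.99 (3.38 to 4.72). Of the Rhox homeobox genes of the reproductive tract and placenta, 7 of 13 were higher and 0 lower, with a median of 1.30, and 5 of the 10 with 1 CPM or more in shLacZ were higher. Rhox6 had 5.72 CPM and 28.9 scaled CPM, a fold of 5.05 (4.33 to 5.91), Rhox9 had 5.19 and 24.7, a fold of 4.75, and Rhox5, the most abundant, stood at a fold of 1.71. Of the Xlr genes, which encode chromatin proteins related to SYCP3, 0 of 12 were higher and 8 lower, with a median of -1.26. Xlr5b had 832 and 117 reads, a level 3.79-fold lower, and Xlr3a and Xlr4b were 2.52- and 2.29-fold lower. Copies within each family share reads, so single genes are uncertain, and Rhox5, Xlr3a and Xlr4b were named after their values were seen. In later EBs the Xlr median, over 9 to 12 genes, lay between -2.84 and -1.10 on all 6 days. The Rhox median lay between -2.15 and 0.86, but over only 8 genes at d2 and 3 on each day from d4. From d4 to d10, 0 Fthl17 genes had enough reads.

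Processed pseudogenes were the most numerous type outside the protein-coding set. Among 1600 of them, 150 (9.38%) were higher and 364 (22.8%) lower, beside the 13.2% and 18.1% of all genes outside that set. Gm15484 (chromosome 5, 110118022 to 110118849, minus strand) had 5902 reads in shLacZ and 291 in shDIS3L2, or 148 CPM and 13.7 scaled CPM, a level 10.8-fold lower. Gm7289, Gm9487, Gm5648, Gm9826 and Gm5511 were 6.38-, 5.23-, 5.19-, 5.05- and 4.92-fold lower. Pseudogenes can share reads with their parent genes, and how such reads were assigned is not given in the sources used here, so these counts are uncertain. On the 6 later days the log2 fold of Gm15484 lay between -0.39 and 0.36. The largest folds outside the protein-coding set were those of small RNA copies, led by the 5S copy Gm26391 with 14 and 781 reads, n-R5s103 with 82 and 4426, and n-R5s142 with 16 and 684. Gm22513, Rnu2-10 and Gm23472 followed at folds of 75.3, 73.3 and 70.5. Of 186 lincRNAs, 29 (15.6%) were higher and 10 (5.38%) lower, beside the same 13.2% and 18.1%. Over 189 lincRNAs, with those inside the protein-coding set included, the median of 0.22 turned to -0.09 by library totals. Of these 189, 18 reached 1 CPM in shDIS3L2 alone. Among the 171 that did so in shLacZ, 16 were higher and 10 lower, at a median of 0.14.

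The members of 19 pathway lists and 6 marker lists were then counted, beside the 3.09% higher and 4.53% lower of all protein-coding genes. The naive and general pluripotency list had 22 genes measured, 3 higher and 0 lower, with a median log2 fold of -0.21. Sall4, a zinc finger factor of the pluripotency network, was the most abundant of the 3, at 255 CPM and 576 scaled CPM, a fold of 2.26 (2.20 to 2.32). Tbx3 stood at 138 and 278, a fold of 2.02 (1.95 to 2.10). Klf5, a Krüppel-like factor that helps to sustain self-renewal, stood at 7.09 and 19.3, a fold of 2.73 (2.34 to 3.18). Pou5f1, at 1198 and 895, had a fold of 0.748, within the limit of 2-fold. The targets of LIF and Stat3, the pathway that LIF drives, had 0 of 13 higher and 0 lower.

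The genes of the next developmental state, formative and primed epiblast, had 17 measured, 1 higher and 3 lower, with a median of -0.17. Sall2 was 3.73-fold lower (182 and 26 reads), Zic2 2.27-fold and the de novo methyltransferase Dnmt3a 2.04-fold, while Cdh2, or N-cadherin, was 2.58-fold higher at 32 and 44 reads. Cdh2 reached 1 CPM in shDIS3L2 alone, and among the 16 genes that did so in shLacZ 0 were higher and 3 lower. Nodal, a ligand of the TGF-β family, stood at 106 and 186, a fold of 1.75 that missed the rule. The list of methylation-sensitive germline genes had 5 of 23 higher and 2 lower, a median of 0.26 that turned to -0.06 by library totals. Among the 21 with 1 CPM or more in shLacZ, 3 were higher and 2 lower. Rhox6, Rhox9 and Rhox2a were among the 5, with Slc25a31, an ADP/ATP carrier of the testis, at 17 and 42 reads. The genes of the rare 2-cell-like state had 0 of 6 higher and 3 lower, at a median of -0.85. These were Zscan4f, Zscan4c and Zscan4-ps2, at folds of 0.234, 0.463 and 0.354 and with 72, 77 and 159 reads in shLacZ. The 3 belong to 1 family, lie close together on chromosome 7 and can share reads, so their single counts are uncertain.

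The inhibitors of 2i act on MEK and on GSK3, which dampens ERK targets and raises Wnt targets. Of 16 ERK pathway targets, 1 was higher and 1 lower, with a median of 0.28 that was -0.03 by library totals. Etv1 had 173 and 235 reads, a fold of 2.55, and Spry1, a feedback inhibitor, had 132 and 27, a fold of 0.384. The most abundant member, Etv5, stood at a fold of 1.12. Of 14 canonical Wnt targets, 3 were higher and 1 lower, at a median of 0.14 that was -0.17 by library totals. Cdx2 and Dkk1 reached 1 CPM in shDIS3L2 alone. Among the 12 targets that did so in shLacZ, 1 was higher and 1 lower, at a median of -0.005. Sp5 had 12.6 CPM and 28.1 scaled CPM, a fold of 2.24 (1.98 to 2.52). Cdx2 had 14 and 48 reads, a fold of 6.43 (3.49 to 12.6), Dkk1 had 10 and 28, a fold of 5.25 (2.48 to 12.1), and Nkd1 had 85 and 14, a fold of 0.309.

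The genes of secretion and stress form the next group, since 7SL RNA is the backbone of the signal recognition particle. Of 26 genes of the SRP and the Sec61 translocon, 0 were higher and 0 lower, with a median of 0.05 that was -0.27 by library totals, -0.08 with TMM factors and -0.10 when genes were centred on others of their level. Sec61a1, the channel itself, stood at 210 and 222, a fold of 1.06 (1.02 to 1.09). Of 19 genes of ER calcium handling 0 differed by the rule, and Calr, the luminal calcium-binding chaperone calreticulin, stood at 1086 and 1154. Of 20 unfolded protein response chaperones, 0 were higher and 1, Herpud1, was lower, and Hsp90b1 stood at a fold of 0.934. The targets of the integrated stress response had 0 of 25 higher and 4 lower, with a median of -0.45 and 20 of 25 folds below 1. Chac1, Ddit4, Stc2 and Atf3 were 3.28-, 2.54-, 2.23- and 2.00-fold lower, while Asns, the asparagine synthetase, stood at 830 and 841.

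The remaining pathway lists held few differences. Of 24 cholesterol genes, 19 p53 targets and 29 proliferation genes, 0 differed by the rule. The glycolysis and hypoxia list had 1 of 26 higher and 2 lower, with Mt1, a metal-binding metallothionein, at 696 and 1417 (fold 2.04) and the hypoxia targets Ndrg1 and Car9 at folds of 0.429 and 0.436. Of the imprinted genes expressed from the father, 0 of 15 were higher and 2 lower at a median of -0.51, namely Mest (fold 0.364) and Peg10 (fold 0.472). Of those expressed from the mother, 1 of 16 was higher, Tssc4, and 2 lower, Rian and Gnas, at folds of 0.425 and 0.462, with a median of 0.13 that was -0.19 by library totals. The interferon list had Ifi27 as its 1 higher gene of 9. Among symbol families read in the same way, 2 of 14 Hox genes were higher and 5 lower, 4 of 330 Zfp genes were higher and 18 lower, and 2 of 8 S100 genes were higher, with S100a13 at 90.0 and 343. Hoxb9, at 4.01 and 14.1, had a fold of 3.51 and so ran against the Hox median. Hoxb9 and S100a13 were named after their values were seen.

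Markers of other cell types were read for cells that an ESC culture could hold. Members not counted as measured here were under 1 CPM in both libraries, and those at 0 reads in both included Msgn1 of the mesoderm-like list, Neurog2 of the neural-like list and Dcn and Prrx1 of the fibroblast-like list. The trophectoderm-like list had 3 of 9 measured genes higher and 0 lower, with a median of 0.22 that was -0.10 by library totals. Cdx2 and Gata3 reached 1 CPM in shDIS3L2 alone. Among the 7 genes that did so in shLacZ, 1 was higher and 0 lower, at a median of -0.08. Gata3 had 7 and 27 reads and Krt7 216 and 236, and Cdx2 is given above. The summed level of this list was 136 CPM and 140 scaled CPM. The primitive endoderm-like list had Dab2 higher and Gata4 lower of 7, at folds of 4.14 and 0.348 and a summed level of 543 and 594. Dab2 reached 1 CPM in shDIS3L2 alone, and 0 of the 6 genes that did so in shLacZ were higher. The mesoderm-like list had Evx1 as the 1 higher gene of 5, but Evx1 reached 1 CPM in shDIS3L2 alone, and 0 of the other 4 were higher. The neural-like list had Sox1 as the 1 lower of 4, and the fibroblast-like list had Twist1 and Thy1 as the 2 lower of 5. Twist1 had 61 reads in shLacZ and 6 in shDIS3L2. The summed levels were 27.9 and 35.7, 101 and 75.3, and 26.1 and 17.9 for these 3 lists, and the part of such cells in the other differences was not tested.

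**Figure D3:**
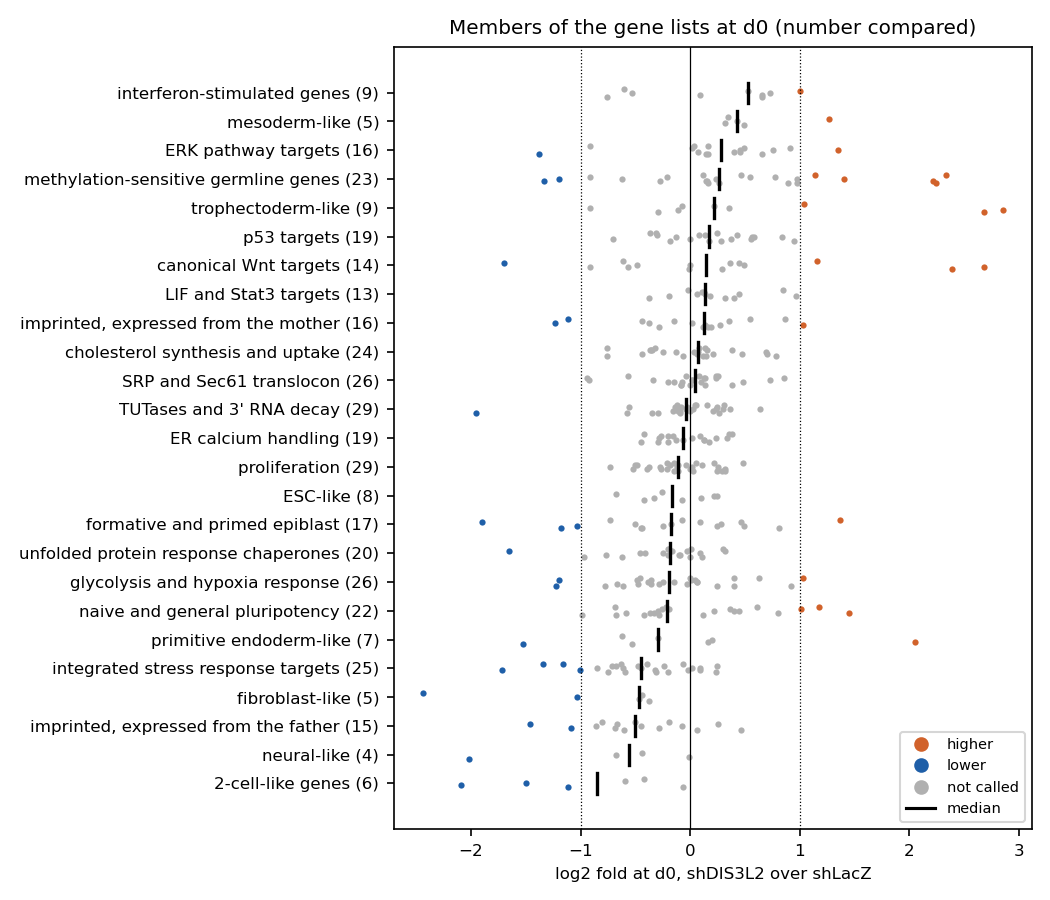
Scaled log2 folds at d0 of the measured members of each gene list, with 1 point per gene (coloured where counted as higher or lower), a black bar at the list's median, and 0 as the median protein-coding gene. The 2-cell-like median lies at -0.85 and the integrated stress response median at -0.45, while the medians between 0 and 0.32, such as 0.14 for LIF and Stat3 targets, would lie below 0 by library totals.

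By position, most chromosomes stood close to the median. Apart from chromosomes 8 and 16, the medians of the 18 others (autosomes and X) lay between -0.06 and 0.06. Chromosome 8 had a median of -0.16, and on the 6 later days it lay between -0.38 and -0.21. Chromosome 16 had a median of -0.15, between -0.22 and -0.04 on the later days, with 3 of its 373 genes higher and 23 lower. The share lower was 6.17%, beside 4.53% of all protein-coding genes and 3.26% to 6.34% on the 18 chromosomes, so the count lower was not particular to chromosome 16. The share higher was 0.804%, beside 3.09% of all protein-coding genes and 1.66% to 6.58% on the other autosomes and X. Eif4a2 and Spice1, a centriole protein that stood 3.06-fold lower at 20.4 and 6.68, lie on chromosome 16, and so does Fstl1, a secreted glycoprotein, at 75.8 and 29.0. Spice1 and Fstl1 were named after their values were seen. With 1 line of each kind, a line difference in these chromosomes and an effect of the hairpin cannot be told apart.

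**Figure D4:**
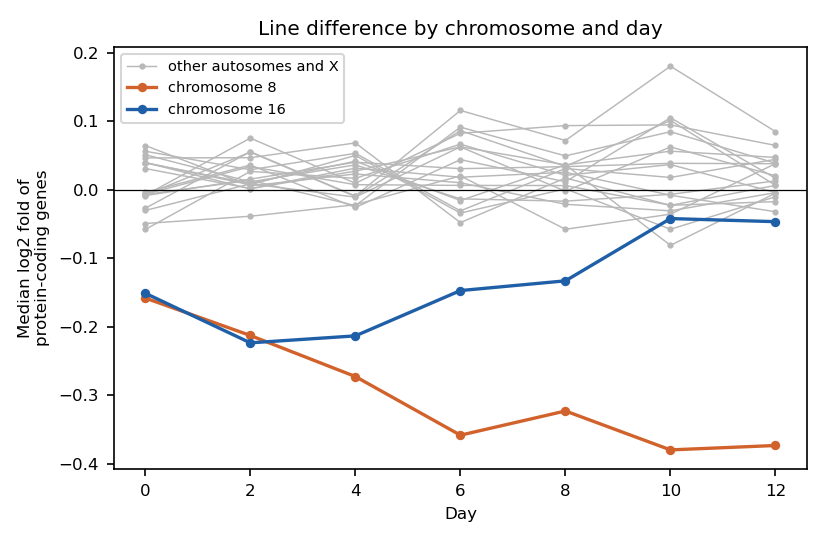
Median scaled log2 fold of the protein-coding genes of each chromosome at d0 and on the 6 later days. Chromosome 8 lies at -0.16 at d0 and between -0.38 and -0.21 later, chromosome 16 at -0.15 at d0, and the others between -0.06 and 0.06 at d0.

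The genes that differed at d0 were then followed to d2, whose libraries are separate from those of d0. At d2, 92 of 13163 protein-coding genes (0.699%) were higher and 118 (0.896%) lower. Of the 376 genes higher at d0, 247 had enough reads at d2, where 11 were higher and 5 lower, with a median log2 fold of 0.16. Of the 550 lower at d0, 510 had enough reads, where 1 was higher and 13 lower, with a median of -0.14. Over all 11541 genes compared on both days, 48 (0.416%) were higher and 46 (0.399%) lower at d2, with a median of 0.01. So most of the genes that could be compared at d2 did not meet the rule there. They were picked by their fold at d0, so smaller folds at d2 are not by themselves a result.

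A replicated test was possible only for whether the line difference at d0 departed from that of the 6 later days. It was made by edgeR's quasi-likelihood test with Benjamini-Hochberg adjustment on all 14 libraries, with days standing in for replicates, so it compares days and not cultures. Of 21183 genes tested, 52 (0.245%) had a higher difference at d0 and 199 (0.939%) a lower one. The protein-coding set gave 27 (0.169%) and 71 (0.445%) of 15969, and the others 25 (0.479%) and 128 (2.45%) of 5214, of which 123 of the 128 were processed pseudogenes. The counts rested on the days included. Without d2 they were 145 and 290, without d4 23 and 100, without d6 13 and 62, without d8 16 and 67, without d10 12 and 57, and without d12 16 and 65. With DESeq2 they were 777 and 444.

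Most of the genes named here were picked by their fold at d0, so their departures are a description. The 5S gene n-R5s103 departed by 7.34 on the log2 scale (SE 0.87, adjusted p = 0.0118, edgeR quasi-likelihood test, Benjamini-Hochberg), with adjusted p of 0.0141 to 0.0338 when any 1 day was left out. The 7SK gene Rn7sk departed by 5.12 (SE 0.75, adjusted p = 0.0237, edgeR) and lost its call without d6, where the adjusted p was 0.0534. Rmrp, Rpph1 and Rn7s6 departed by 5.05, 4.11 and 5.04 and did not pass, with adjusted p of 0.114, 0.0636 and 0.113 (edgeR). Dis3l2 departed by -1.81 (SE 0.64, adjusted p = 0.212, edgeR) and did not pass, and its log2 fold was -1.77 at d2, -1.63 at d4 and -0.86 at d6 and then -0.07 at d8 and -0.08 at d10. Eif4a2 departed by -1.84 (SE 0.25, adjusted p = 0.0168, edgeR) and passed with any 1 day left out.

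**Figure D5:**
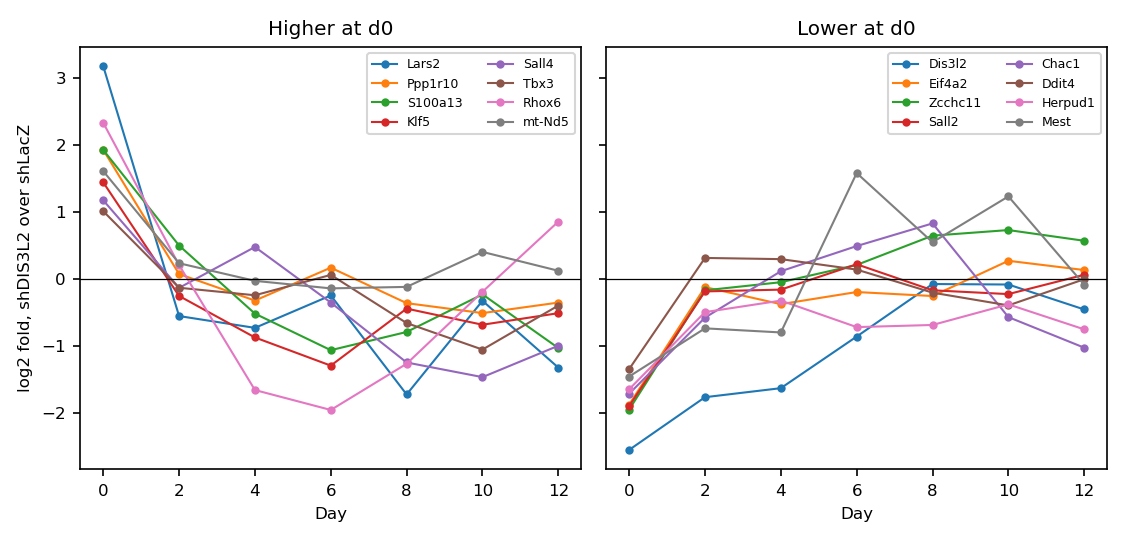
Scaled log2 fold of shDIS3L2 over shLacZ on each of the 7 days for named genes, with 1 line per gene and 0 for the median protein-coding gene of that day. Dis3l2 runs from -2.55 at d0 to -0.45 at d12, and Eif4a2 from -1.88 at d0 to 0.14 at d12.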

How the data were processed

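RNA was sequenced from shLacZ and shDIS3L2 cells on 7 days, 1 library for each line and day. The labels and the study's methods give polyA RNA, and the methods name a guide for total RNA for the library preparation. Per the labels, the authors used Subread and the GRCm38 build for alignment and featureCounts for the gene counts. The counts deposited are raw. Whether strand was used in counting is not given in the sources used here. The CPM values deposited by the authors for 16181 protein-coding genes were found in all 14 libraries to be CPM of the counts with 0.25 added and totals taken over those genes, and served here only to define that gene set. All groups were taken from the labels. The deposited counts name the DIS3L2-depleted line shm5. It was matched to shDIS3L2 because the study's supplement heads its shDIS3L2 over shLacZ folds m5/LacZ, and because no other line beside shLacZ is present.

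Folds at d0 were computed from the counts and divided by the median fold of those protein-coding genes that reached 1 CPM in either library. Intervals are 95% Clopper-Pearson intervals of the reads and cover counting error only, since PCR copies of a molecule cannot be recognised. The floor was 3 counts, which is 0.0752 CPM in the deepest library. The difference at d0 against the other days was tested with edgeR 4.0.16 in R 4.3.3 (TMM, filterByExpr, quasi-likelihood F test, day as a block, Benjamini-Hochberg adjusted p under 0.05), with DESeq2 1.42.0 as an alternative. The libraries of 1 line may share a culture, so this spread is that between days. The folds, intervals and tests were tested on simulated data.

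Gene types and sequences came from GENCODE M21, and 503 of 508 names on the lists matched, which are 487 distinct genes. Small RNA families were the annotated genes of at least 80% identity to a reference copy (edit distance, edlib 1.3.9.post1), a definition made after values were seen. Named genes are Dis3l2, the 12 largest and 12 smallest folds among protein-coding genes counted as different with at least 10 CPM in the higher library, the 6 largest and 6 smallest among other genes, and for each list up to 4 members counted as different and the 2 most abundant. Genes outside this rule are given as named after their values were seen, and so are Dis3, Dis3l, Xrn1, Zcchc6, Lin28a, Snord17 and the genes of the small RNA families. The members and lists were chosen with earlier results of these data known. The alternatives were other scalings, CPM minimums and fold limits, other filters and days left out, and centring on genes of like mean CPM or like length (10 bins each) and a minimum set in shLacZ alone, both added after the data were seen. Other steps were run in Python 3.11.15 (pandas 2.3.3, scipy 1.17.1).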

Additional observations from a re-analysis of the deposited data

Results flagged for a closer look

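Of 156 named genes in the test, 31 had a line difference at d0 that departed from the difference on the 6 later days by edgeR's quasi-likelihood test with Benjamini-Hochberg adjustment, 20 upward and 11 downward. Over all 21183 genes tested the shares were 0.245% upward and 0.939% downward. The named genes were picked largely by their fold at d0, which enters the same test, so the count of 31 is not a result about them. The values below are the log2 fold at d0 minus that of the later days.

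Upward, the small RNA genes were Gm26391 (7.58), n-R5s103 (7.34) and n-R5s142 (7.23) of the 5S family, Gm26232 (6.89) and Gm23238 (6.28) of U1, Rnu2-10 (6.84) and Gm23472 (6.06) of U2, Snord17 (6.71) and Rn7sk (5.12). Gm42418 departed by 4.52, Lars2 by 3.95, Gm15564 by 3.95 and Mir6236 by 3.48. Of the mitochondrial genes, mt-Rnr2 departed by 2.57, mt-Rnr1 by 1.97 and mt-Nd5 by 1.49. The remaining upward departures were S100a13 at 2.48, Dkk1 at 2.42, Ppp1r10 at 2.10 and Klf5 at 2.06.

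Downward, the processed pseudogenes Gm15484, Gm7289, Gm5648, Gm9487 and Gm9826 departed by -3.42, -2.67, -2.29, -2.14 and -2.07. Among protein-coding genes the values were -2.32 for Zcchc11, -1.998 for Gm6169, -1.87 for Sall2, -1.84 for Acat3, -1.84 for Eif4a2 and -1.66 for Spice1.

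With any 1 of the 6 later days left out, 12 of the 31 stayed under an adjusted p of 0.05, namely Lars2, Ppp1r10, Eif4a2, n-R5s103, Gm15484, Gm7289, Gm5648, Sall2, Snord17, Gm15564, Mir6236 and mt-Rnr1. With DESeq2, 30 of the 31 passed. Over all alternatives and genes the adjusted p ran from 6.33e-19 to 0.0948 (edgeR or DESeq2).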

How the results depend on the processing

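No paired analysis by replicate number was possible because the labels carry none and each line has 1 library per day, while the test of d0 against the later days pairs the lines within each day by its day block. Protein-coding genes counted as higher (376) numbered 190 by library totals, 212 by the total reads of protein-coding genes, 589 without a CPM minimum, 171 at a minimum of 5 CPM and 118 at a fold of 3. Those lower (550) numbered 1252 and 1055 under the first 2 of these settings, 229 at 5 CPM, 132 at a fold of 3, and 349 when genes were centred on others of like mean CPM. Other genes counted as higher (311) numbered 172 and 192 under the same 2 scalings, 669 without a minimum, 132 at 5 CPM, 115 at a fold of 3 and 198 when centred on others of like length. Those lower (425) numbered 161 at 5 CPM and 205 at a fold of 3. Such centring, in 10 bins, was chosen after seeing the data.

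The histone median (1.41) was 1.09 by library totals, 1.28 with TMM factors, 1.65 centred by mean CPM and 1.14 centred by length. The ribosomal protein median (0.55) was 0.23, 0.42 and 0.33 under the first 3 of these, and the small RNA family median (5.39) was 5.08, 5.27, 5.58 and 5.12 under all 4. With only genes of at least 1 CPM in shLacZ, also chosen after seeing the data, the histone median was 1.01 and the small RNA family median 5.21. The count of genes with a higher difference at d0 (52) was 103 with DESeq2 size factors, 777 with DESeq2, 274 over d0, d2 and d4 only, 82 without a filter, and 12 to 145 with 1 day left out. The count with a lower difference (199) was 444 with DESeq2, 719 with library sizes, 702 over d0, d2 and d4 only, and 57 to 290 with 1 day left out. The cause was not tested. No value that met the rule changed sign under any alternative.

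Depth set the limits for rare RNAs. A family with under 10 reads in shLacZ has a fold known only within a wide interval, and the let-7 genes, U11 and telomerase RNA could not be compared. With 1 library per line, the spread between cultures at d0 is unknown.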
